A study of Mus musculus with 12 samples.

Results

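A set of 179 moderately abundant small RNA profiles in mouse spleen was described, whose difference between ovalbumin (OVA) and saline mice had opposite signs at day 14 and day 28. A profile here is a distinct set of 12 array values, used once however many probe sets hold it. The members were chosen by the measured values themselves: a mean log2 intensity from 4 to under 8, fewer than 5 probe sets per profile, and an OVA minus saline difference of at least 0.25 log2 units at day 14 and at least 0.5 in the other direction at day 28. They came from 632 profiles in that level range, and from 25112 distinct profiles among the 36249 probe sets of the array. In 90 of them OVA spleens were below saline spleens at day 14 and above at day 28, called low-then-high below. In the other 89 OVA was above saline at day 14 and below at day 28, called high-then-low. The files give each probe set a numeric identifier with no RNA name or sequence, so members are named by the lowest identifier that holds them, and neither sequences nor functions could be attached to them.

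As background, microRNAs and other small non-coding RNAs are short transcripts, and microRNAs guide Argonaute proteins to messenger RNAs that are then silenced. The spleen is a lymphoid organ where B cells, T cells and myeloid cells meet antigen from the blood, beside red pulp that filters red cells. OVA is a protein of egg white that is widely used to raise an IgE response in mice. A spleen RNA level averages all of these cells, and a change in the number of cells of a type cannot be told apart from a change in RNA per cell.

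The arrays measured RNA from whole spleens of female mice, aged 8 weeks by the labels. The saline arm received normal saline and the OVA arm 0.05 mg of OVA per day, each by 3 intraperitoneal injections on days 1, 3 and 5, and spleens were collected at day 14 or at day 28. There were 4 OVA and 2 saline arrays at each day, and the OVA mice had been picked for high OVA-specific IgE in blood. The strain is not given in the sources used here, nor is it stated that each array is a mouse of its own, so p-values reflect the spread between arrays only. Values are processed intensities on a linear scale, taken to log2 here. Mean intensity over all probe sets was 47.4 to 51.7 on the OVA day 28 arrays and 40.6 to 44.8 on the other 8. Spleen markers could not be checked without RNA names.

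The low-then-high profiles ended furthest apart at day 28. Their median OVA minus saline difference was -0.44 log2 units at day 14 (quartiles -0.56 and -0.36), or 1.36-fold lower in OVA. At day 28 it was 1.17 (quartiles 0.89 and 1.49), or 2.24-fold higher. The day 28 difference exceeded the day 14 difference in size in all 90, and it reached 1 log2 unit in 64 of them, against 2 at day 14. These sizes are descriptions of what the choice of members used, and no test was made of them. Over all 11771 profiles at or above the level filter, the medians were 0.03 at day 14 and -0.0034 at day 28.

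The high-then-low profiles were the mirror image with a smaller final gap. Their median difference was 0.43 log2 units at day 14 (quartiles 0.34 and 0.60), 1.34-fold higher in OVA. It was -0.95 at day 28 (quartiles -1.21 and -0.71), 1.93-fold lower. The day 28 difference was the larger in 76 of 89, and it reached 1 log2 unit in 38, against 4 at day 14. Members and non-members formed a continuous range. The nearest profiles to the day 14 threshold stood at -0.251 inside and -0.239 outside for low-then-high, and at 0.2501 and 0.2498 for high-then-low. At the day 28 threshold they stood at 0.517 and 0.492, and at -0.503 and -0.484. At the level limits, the nearest low-then-high profiles had a mean log2 intensity of 4.05 inside and 3.96 outside at the lower limit, and 7.97 and 8.19 at the upper. For high-then-low profiles these were 4.01 and 4.00, and 7.92 and 8.20. A further 21 and 7 profiles met every other condition but were held by 5 or more probe sets.

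**Figure D1:**
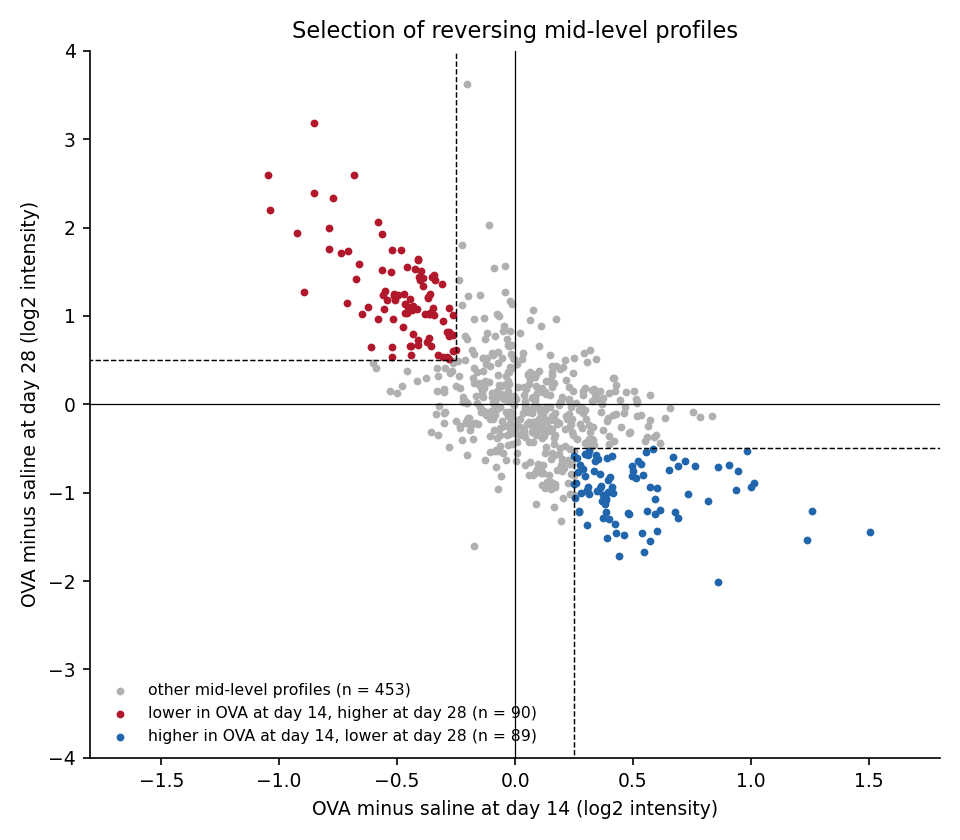
OVA minus saline difference at day 14 (x axis, log2 intensity) and day 28 (y axis, log2 intensity) for the 632 mid-level profiles, with the thresholds as dashed lines. The 90 red and 89 blue members are the outer parts of a cloud that runs from upper left to lower right, and 4 profiles past both sizes were higher in OVA at both days.

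Opposite signs at the 2 days were found in 74.8% of the mid-level profiles. The share was 76.1% in the profiles of higher level that few probe sets held, 85.8% in those held by 5 or more probe sets and 53.3% in all tested profiles. Of the 632 mid-level profiles, 208 were below saline at day 14 and above it at day 28, 265 the reverse, 87 above at both days and 72 below at both. Past the sizes required for membership, 4 were higher in OVA at both days and 0 were lower at both. Among the 218 profiles of higher level that few probe sets held, 18 low-then-high and 14 high-then-low met the same differences. Among the 148 profiles held by 5 or more probe sets with a mean of at least 4, 38 and 11 did. The thresholds are the same but the levels and spreads differ between these sets, and the shares were not tested against each other.

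Both arms moved over time in most members, in opposite directions. In the low-then-high profiles the median change from day 14 to day 28 was 0.83 log2 units in OVA (1.77-fold up) and -0.75 in saline (1.69-fold down). OVA was higher and saline lower at day 28 in all 90. In the high-then-low profiles the medians were -0.66 in OVA (1.58-fold down) and 0.77 in saline (1.70-fold up). OVA was lower at day 28 in 88 of 89 and saline higher in all 89. Over all tested profiles the medians were 0.0073 in OVA and 0.03 in saline. Since the rule fixed the difference between these arm changes, their opposite direction is a description and not a result of its own.

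How much each arm moved was counted as the OVA share of the reversal, that is the OVA change divided by the OVA change minus the saline change. Among low-then-high profiles the share was between 0.33 and 0.67 in 66, above it in 8 and below it in 16. The median share was 0.50 (range 0.15 to 0.93). In the 8 with mainly an OVA change, OVA rose by a median of 0.90 and saline changed by -0.27. In the 16 with mainly a saline change, the medians were 0.41 and -1.07. Among high-then-low profiles the share was between 0.33 and 0.67 in 63, above it in 13 and below it in 13, with a median of 0.46. Where mainly OVA moved, its median change was -1.01 beside 0.33 in saline. Where mainly saline moved, the OVA median was -0.27 and the saline median 1.07.

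**Figure D2:**
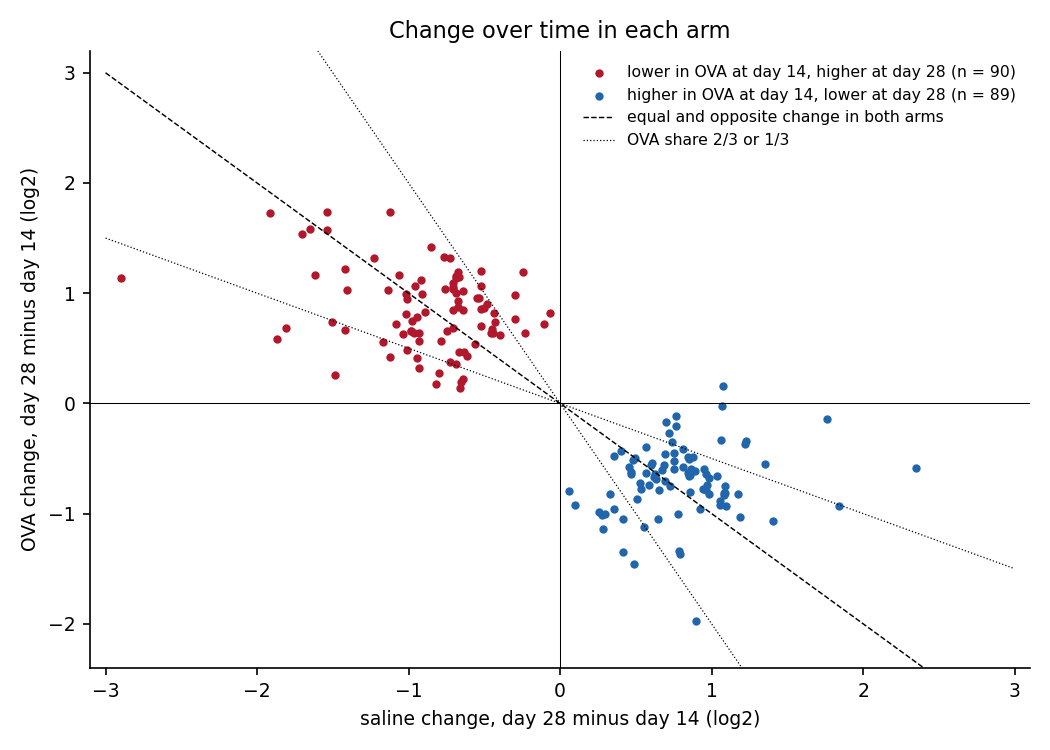
Change from day 14 to day 28 in saline (x axis, log2) and in OVA spleens (y axis, log2) for the 179 members. Most points lie near the dashed line of equal and opposite change, with 66 of 90 red and 63 of 89 blue points between the dotted lines that mark OVA shares of 0.67 and 0.33.

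The day 28 groups were the extreme ones. Saline day 28 was the lowest group mean in 81 of the 90 low-then-high profiles and OVA day 28 the highest in 80, and 71 had the order saline day 28, OVA day 14, saline day 14, OVA day 28. The group farthest from the mean of the other groups was OVA day 28 in 45 and saline day 28 in 45, by a median of 0.90 and -0.90 log2 units. In the high-then-low profiles OVA day 28 was the lowest group in 66 of 89 and saline day 28 the highest in 79. There the farthest group was saline day 28 in 42, OVA day 28 in 34, saline day 14 in 11 and OVA day 14 in 2. Day 14 groups therefore stood apart in 13 high-then-low profiles and in none of the low-then-high ones.

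Averaged over the members, the single arrays showed the same picture. The mean log2 intensity of the low-then-high profiles was 6.001 and 6.13 on the saline day 14 arrays and 5.18 and 5.20 on the saline day 28 arrays. In OVA it was 5.40, 5.48, 5.53 and 5.89 at day 14 and 6.15, 6.23, 6.65 and 6.68 at day 28, in replicate order. The arms did not overlap at either day, which the choice of members favours. OVA day 14 replicate 4, at 5.89, was the OVA array of that day nearest to saline.

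For the high-then-low profiles the saline arrays stood at 5.46 and 5.07 at day 14 and at 5.97 and 6.15 at day 28. The OVA arrays stood at 5.85, 5.96, 5.84 and 5.48 at day 14 and at 5.46, 5.41, 4.82 and 4.62 at day 28, in replicate order. At day 14 OVA replicate 4 was level with the higher saline array, and at day 28 OVA replicates 3 and 4 were the lowest of all. As group means, the high-then-low profiles were at 5.78 ± 0.21 (SD, n = 4) in OVA and 5.27 ± 0.28 (SD, n = 2) in saline at day 14. At day 28 they were at 5.08 ± 0.42 (SD, n = 4) and 6.06 ± 0.13 (SD, n = 2). Averaged over the 453 other mid-level profiles, the level was between 5.68 and 5.87 on every array. Rises and falls of single profiles can cancel in such an average, which was 5.68 to 5.83 over all 632 mid-level profiles.

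**Figure D3:**
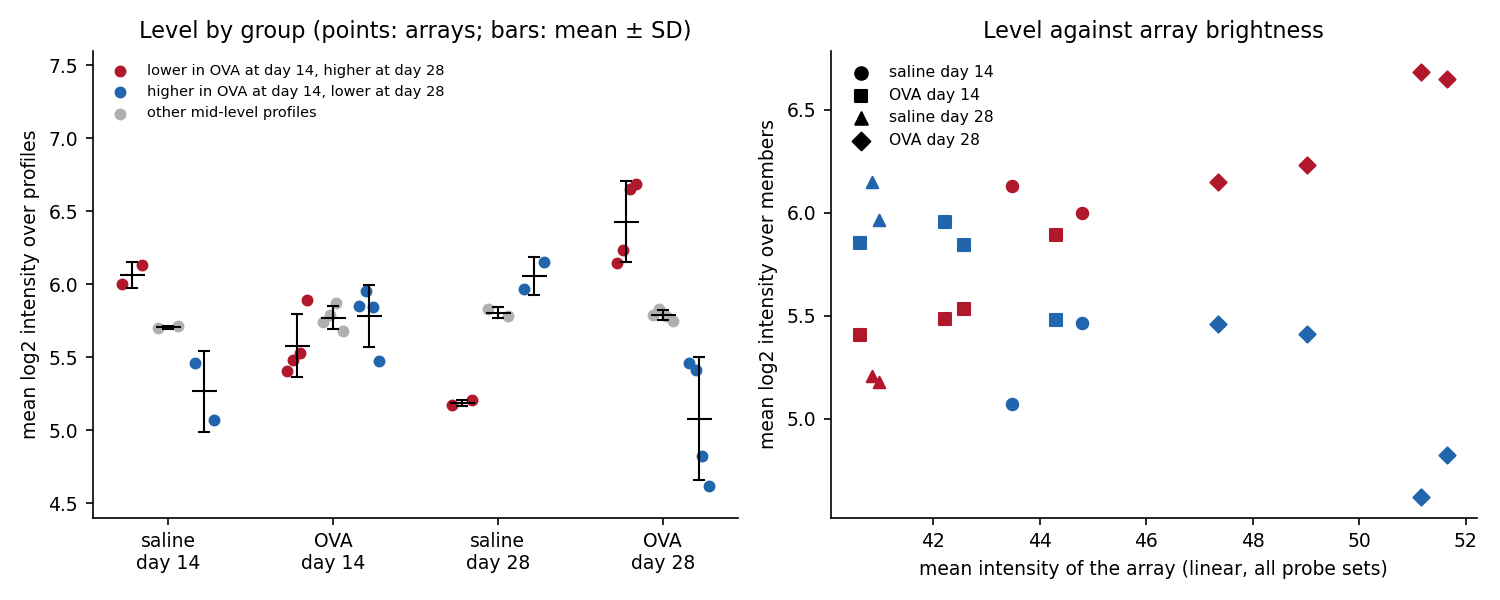
Left, mean log2 intensity over the 90 low-then-high (red), 89 high-then-low (blue) and 453 other (grey) mid-level profiles on each array, with group mean ± SD as bars. Right, the same red and blue array values against the mean linear intensity of the array, with symbols for the 4 groups: the 7 arrays of highest mean intensity hold the 7 highest red and the 7 lowest blue values.

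The levels of both directions varied with the brightness of the arrays, taken as the mean intensity over all probe sets. The 7 arrays with the highest mean intensity (43.5 to 51.7) were the 4 OVA day 28 arrays, both saline day 14 arrays and OVA day 14 replicate 4. These 7 had the highest levels of the low-then-high profiles and the lowest levels of the high-then-low ones. The other 5 arrays had mean intensities of 40.6 to 42.6. The members themselves made up little of this brightness: 0.43% to 0.93% of the summed intensity for low-then-high and 0.23% to 0.71% for high-then-low profiles. Without them the mean intensity was 40.4 to 51.4. The profiles held by 5 or more probe sets also varied with brightness, from a mean log2 of 7.40 and 7.42 in saline day 28 to 7.81 to 7.90 in OVA day 28. Other measures did not rise with it. Profiles of higher level that few probe sets held had a mean log2 of 9.91 and 9.92 in saline day 28 and 9.80 to 9.89 in OVA day 28. The brightest arrays, OVA day 28 replicates 3 and 4, had the lowest of these levels, 9.80 and 9.81. The median intensity over all probe sets was 1.05 and 1.09 in saline day 28 and 1.03 to 1.06 in OVA day 28. The part of array brightness in the reversal was not tested.

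How arrays lie within their own group was not used to choose the members. On OVA day 28 replicates 3 and 4, 83 of the 90 low-then-high profiles were above their group mean on each array, against 7 and 10 on replicates 1 and 2. The high-then-low profiles did the opposite, with 4 and 3 of 89 above the group mean on replicates 3 and 4 and 86 and 83 on replicates 1 and 2. Both of replicates 3 and 4 lay above both of replicates 1 and 2 in 78 of 90 low-then-high profiles (86.7%) and below both in 82 of 89 high-then-low profiles (92.1%). Among the 453 other mid-level profiles these shares were 26.0% above and 35.8% below. No test was made of these counts, since the arrays were singled out by their values and profiles of an array share its RNA.

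A like split ran through OVA day 14. Replicate 4 was the highest array of its group in 71 of 90 low-then-high profiles and the lowest in 57 of 89 high-then-low profiles. Among the other mid-level profiles it was the highest in 81 and the lowest in 175 of 453. Averaged over members, its deviation from the group mean was 0.31 log2 units for low-then-high and -0.31 for high-then-low profiles. In 10 of the 12 arrays the mean deviations of the 2 directions had opposite signs. The 2 arrays of a saline group mirror each other and always give the same outcome, so the 12 are not separate observations. The spread within groups was taken as the SD of 4 OVA or 2 saline arrays. At equal spread the median SD of 2 arrays is lower than that of 4, so the arms cannot be compared directly. In the low-then-high profiles the median SD in OVA was 0.29 log2 units at day 14 and 0.30 at day 28, against 0.23 and 0.19 in the other mid-level profiles. In saline it was 0.12 and 0.15, against 0.16 and 0.18. In the high-then-low profiles it was 0.28 and 0.44 in OVA and 0.34 and 0.24 in saline, above the other mid-level profiles in all 4 groups.

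**Figure D4:**
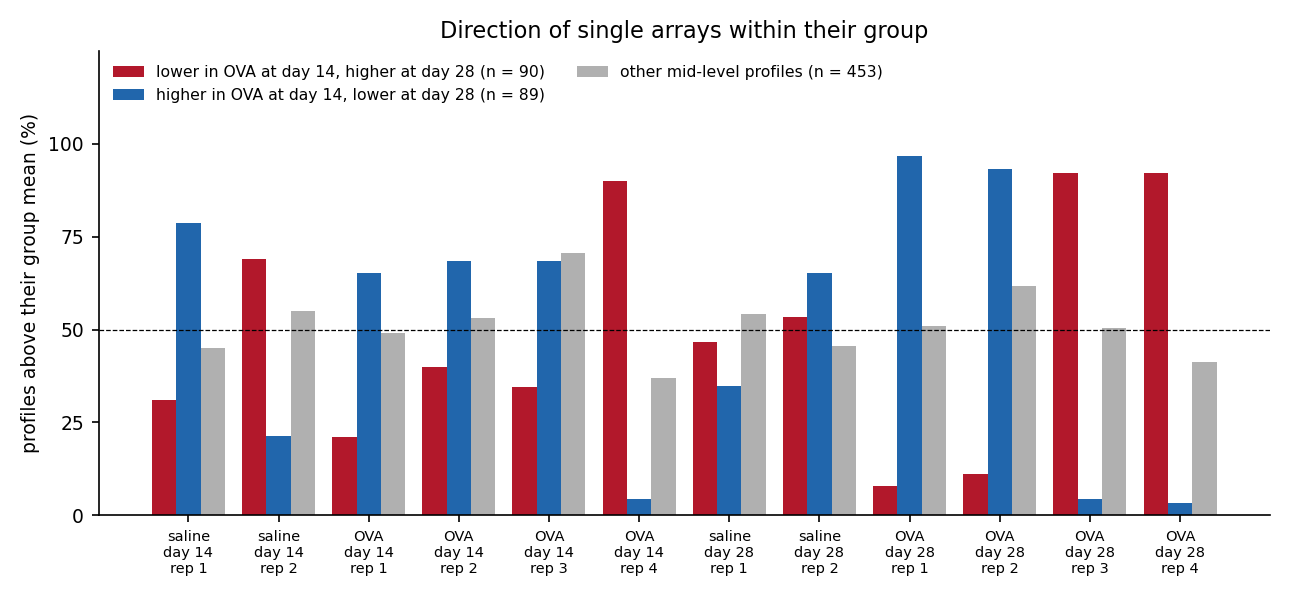
Percent of profiles above their own group's mean (y axis) on each of the 12 arrays (x axis), for low-then-high (red), high-then-low (blue) and other mid-level profiles (grey). Red and blue bars lie on opposite sides of 50 on every OVA array and both saline day 14 arrays, and on the same side on both saline day 28 arrays. On OVA day 14 replicate 3 the grey bar (320 of 453) is above the blue one (61 of 89).

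Without OVA day 28 replicates 3 and 4, the OVA change over time of the same members was above 0 in 89 of 90 low-then-high and below 0 in 77 of 89 high-then-low profiles. The median OVA change was then 0.61 and -0.34 log2 units, against 0.83 and -0.66 with all arrays. Choosing the members again without these arrays gave 78 low-then-high profiles, 77 of them among the 90, and 56 high-then-low profiles, 52 of them among the 89. Without OVA day 14 replicate 4 it gave 97 and 112.

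Separation of the single arrays was common in members. At day 28 the lowest OVA array exceeded the highest saline array in 88 of 90 low-then-high profiles, where 13.1% of all tested profiles did so, and the highest OVA array was under the lowest saline array in 70 of 89 high-then-low profiles, where 10.9% did. At day 14 all OVA arrays lay below saline in 52 of the 90, against 6.49% of all tested, and above it in 35 of the 89, against 8.54%. Both days together held in 51 and 30 members, against 1.53% and 1.42% of all tested. These counts rest on the values that chose the members, so nothing is read from their distance to the background.

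Over time, the OVA arrays of day 28 lay above all those of day 14 in 59 of 90 low-then-high profiles. This held in 4.71% of all tested and 13.5% of the other mid-level profiles. They lay below all in 33 of 89 high-then-low profiles, against 2.47% and 8.61%. The saline arrays of day 28 lay below those of day 14 in 84 of 90 low-then-high profiles. This held in 17.0% of all tested and 14.8% of the other mid-level profiles. They lay above in 76 of 89 high-then-low profiles, against 21.5% and 33.1%. These counts also rest on values that chose the members. With 2 arrays against 2, the saline groups separate easily.

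The largest reversals were low-then-high. Profile 20526885 stood at 4.46 and 5.64 on the saline arrays of day 14 and at 2.73 and 1.58 on those of day 28. On the OVA arrays it stood at 2.86, 3.07, 4.65 and 6.21 at day 14 and at 4.55, 5.35, 5.57 and 5.88 at day 28. OVA overlapped saline at day 14, where its 4 arrays ranged widely (4.20 ± 1.6, SD, n = 4), and lay wholly above it at day 28, 9.11-fold on average. Most of the reversal of 20526885 came from saline, which was 7.46-fold lower at day 28, with an OVA share of 0.28.

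Profile 20523114 reversed in both arms. The saline arrays held 5.26 and 5.47 at day 14 and 3.57 and 3.33 at day 28. The OVA arrays held 3.78, 4.39, 4.07 and 5.03 at day 14 and 5.41, 5.69, 6.33 and 6.73 at day 28. OVA was below saline on every array at day 14 (2.07-fold) and above on every array at day 28 (6.03-fold). Its OVA share was 0.47, with a 3.30-fold rise in OVA and a 3.77-fold fall in saline.

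Among high-then-low profiles the largest reversal was that of 20512552. Its saline arrays stood at 3.83 and 2.08 at day 14 and at 4.90 and 5.72 at day 28, and its OVA arrays at 3.79, 5.26, 4.71 and 4.08 and then at 4.49, 4.41, 3.71 and 2.86. The arms overlapped at day 14, where the saline arrays differed by more than 1 log2 unit, and were separate at day 28, with OVA 2.71-fold lower. The saline change of 20512552 was 5.11-fold upward against 1.51-fold downward in OVA.

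The next, 20517821, moved mainly in OVA. The OVA arrays stood at 8.55, 9.10, 5.59 and 6.08 at day 14 and at 6.35, 4.55, 4.54 and 5.97 at day 28. The saline arrays stood at 6.02 and 6.92, then at 6.81 and 7.91. At day 14 OVA replicates 1 and 2 were well above both saline arrays and replicates 3 and 4 were near or below the lower one, and its day 14 difference of 0.86 log2 units is smaller than the group's SD of 1.8 (n = 4). At day 28 OVA was 4.03-fold lower, with every OVA array below both saline arrays.

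The members with the highest and lowest OVA share show the ends of the range. In 20525565 (low-then-high, share 0.93) saline hardly differed between days, at 5.72 and 6.02 and then 5.95 and 5.67, while OVA went from 5.67, 5.61, 5.62 and 5.27 to 6.12, 6.10, 6.59 and 6.65. Every OVA array of 20525565 was higher at day 28 than at day 14. Its day 14 difference met the threshold for membership only with the lowest OVA array of that day, at 5.27. In 20519151 (low-then-high, share 0.15) saline went from 5.22 and 4.49 to 2.85 and 3.90, and OVA from 4.33, 4.26, 4.89 and 4.61 to 4.65, 4.50, 4.85 and 5.13. There the OVA days overlapped and the saline days did not.

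In 20525549 (high-then-low, share 0.93, held by 2 probe sets) saline stood at 7.08 and 7.20, then at 7.08 and 7.32. OVA stood at 7.45, 7.32, 7.47 and 7.49, then at 6.65, 6.68, 6.68 and 6.53, a 1.74-fold fall with an SD of 0.08 and 0.07 in the OVA groups (n = 4 each). All 4 OVA arrays of 20525549 were above saline at day 14 and below it at day 28. In 20529566 (high-then-low, share -0.17) saline rose from 4.60 and 3.99 to 5.10 and 5.64, and OVA went from 4.25, 4.99, 4.75 and 4.56 to 5.38, 4.92, 4.47 and 4.41. Both arms of 20529566 had a higher mean at day 28, saline by more, and OVA overlapped saline at both days.

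**Figure D5:**
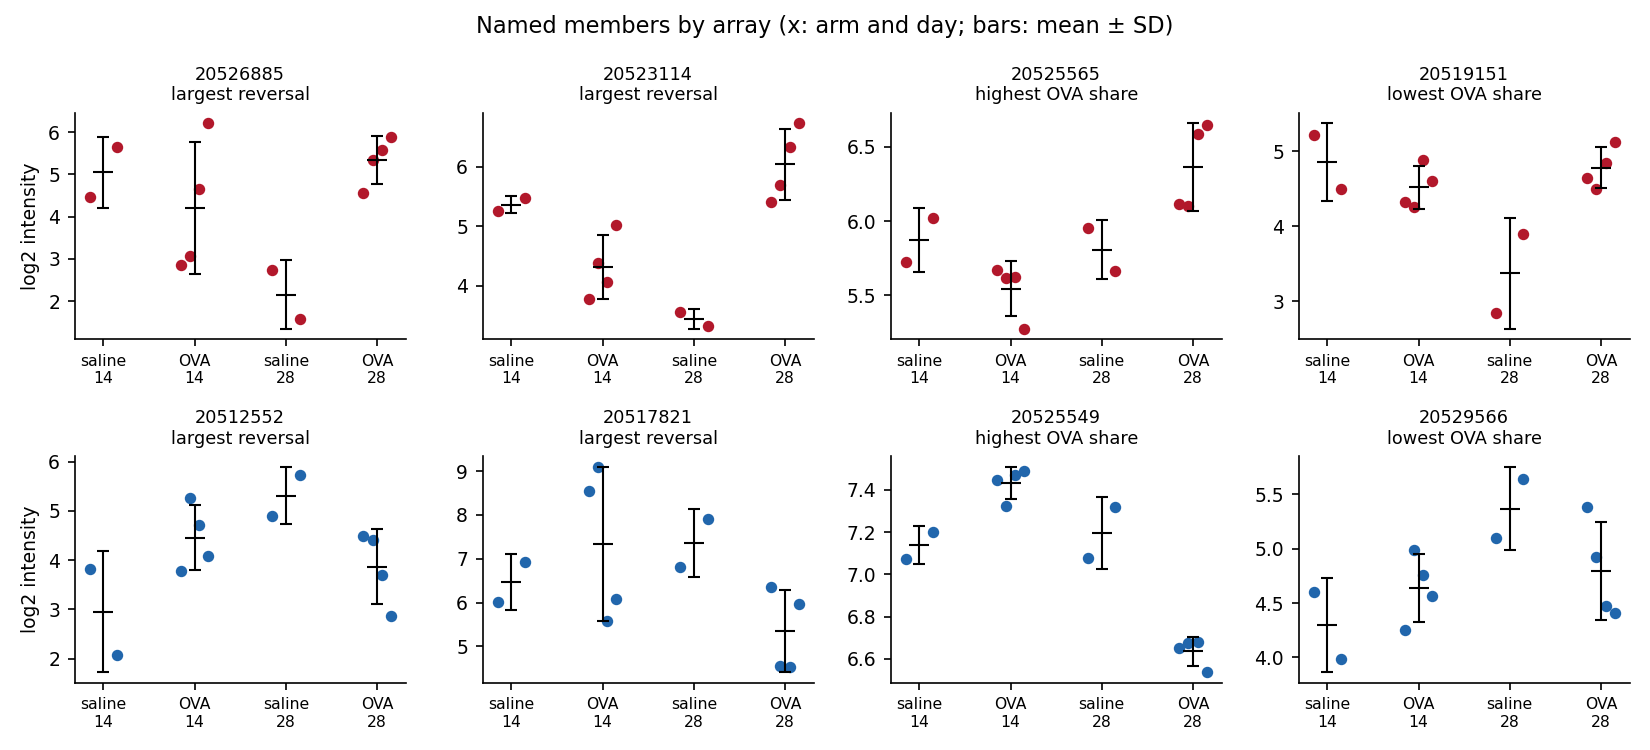
Log2 intensity (y axis) of the 8 named members on each array, by arm and day (x axis), with group mean ± SD as bars. Low-then-high members are red and high-then-low members blue, and the OVA groups of 20525549 are the tightest, at SDs of 0.08 and 0.07.

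Day 28 was also compared with day 14 over all 6 arrays of each day, a contrast that is uncorrelated with both OVA minus saline differences and with the mean level only when arrays vary alike. Whether they do cannot be settled from the SDs given above, which come from 4 OVA and 2 saline arrays. The contrast weights OVA and saline arrays as 4 to 2, so the arm changes of the members enter it unequally. The members' counts in it are therefore given as a description and not as evidence independent of the choice. In limma, no member and no other profile passed an adjusted p of 0.05 (0.00% of 11771). At an unadjusted p under 0.05, 41 of 90 low-then-high profiles (45.6%) were higher at day 28 and none lower, beside 6.13% higher in all tested profiles, 15.9% in the other mid-level profiles and 31.8% in the profiles held by 5 or more probe sets. Of the 89 high-then-low profiles, 15 (16.9%) were lower at day 28 and 1 higher, beside 2.54% lower in all tested, 10.8% in the other mid-level profiles and 7.43% in those held by 5 or more probe sets. The differences between these shares were not tested.

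By size, the low-then-high profiles had a median change of 0.31 log2 units over all arrays (quartiles 0.10 and 0.46), with 74 of 90 above 0. The high-then-low profiles had a median of -0.18 (quartiles -0.30 and -0.09), with 76 of 89 below 0. The other mid-level profiles had 0.06 and all tested profiles 0.02. OVA arrays outnumber saline arrays at each day, and in most members the arms moved by similar amounts in opposite directions. The members' sizes and signs in this contrast therefore lean toward the OVA change through the weighting. They are not read as a shift shared by both arms. Among the named members the lowest limma adjusted p in this contrast was 0.10, for 20525549, with a change of -0.51 (SE 0.08). For 20525565 the limma adjusted p was 0.23 at a change of 0.52 (SE 0.13).

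These counts varied with the arrays left out and with scaling. Leaving out an array also changed the contrast, since its weights follow the number of arrays left in each group. Saline counted for more at day 28 without an OVA day 28 array, and OVA for more without a saline one. The part of the array itself and that of the weights cannot be told apart here. The unadjusted counts of 41 and 15 became 15 and 9 without OVA day 28 replicate 3, and 15 and 10 without replicate 4. They became 55 and 29 without saline day 28 replicate 1, and 57 and 30 without saline day 28 replicate 2, where 1 low-then-high and 7 high-then-low profiles also passed limma's adjusted threshold. Without OVA day 28 replicates 3 and 4, 3 low-then-high profiles were higher and 8 lower, and 4 high-then-low profiles were lower and 13 higher. Over all tested profiles, 721 were higher and 299 lower at an unadjusted p under 0.05, which turned to 334 higher and 1036 lower when each array was centred on its bright profiles.

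Reversing profiles occurred at every level in the range. Low-then-high profiles were 26 of 209 at a mean log2 from 4 to under 5, 25 of 168 from 5, 20 of 143 from 6 and 19 of 112 from 7. High-then-low profiles were 37 of 209, 25 of 168, 17 of 143 and 10 of 112 in the same steps. The median day 28 difference ran from 1.30 in the lowest step to 1.07 in the highest for low-then-high, and from -1.06 to -0.75 for high-then-low. Most members were held by a single probe set, 67 of 90 and 70 of 89, and the 179 profiles together covered 245 probe sets.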

How the data were processed

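Small RNA was measured in 12 spleen RNA samples. Per the labels, 0.5 μg of total RNA with small RNA was labelled with biotin (FlashTag). Each deposited value is a processed intensity on a linear scale (0.627 to 24076). How the authors summarised, background-corrected and normalized these intensities is not given in the sources used here. All 12 columns were mapped to samples by their labels. The number of arrays limits the precision.

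Intensities were taken to log2 with no pseudocount. Identical 12-array profiles were used once, and 11771 profiles with a mean log2 at or above the median of all probe sets (0.05) were tested in R 4.3.3 by the moderated linear model of limma 3.58.1 (1 mean per group, 8 residual degrees of freedom, two-sided, Benjamini-Hochberg). The procedure was tested on simulated data. Members, rule and lists were chosen with earlier results of these data known. Named members are the 2 largest reversals and the highest and lowest OVA share in each direction. No member passed the day contrast, so its own naming rule named none. Marker lists could not be applied. The alternatives were scaling, a pseudocount, the level filter, testing all probe sets, the variance model, array weights, a replicate block, thresholds of the rule and left-out arrays.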

Additional observations from a re-analysis of the deposited data

Results flagged for a closer look

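Within OVA day 14, replicate 4 of profile 20525565 lay apart from the rest of its group, at 5.27 against 5.61 to 5.67. The gap was 0.857 of the group's range. It was the only such array in 20 checks, and chance gives about 1 in 20. Without this array the day 14 difference of 20525565, -0.33 log2 units with all arrays, would fall short of the day 14 threshold. The membership of 20525565 therefore rests on replicate 4. In 51 low-then-high profiles every OVA array lay below both saline arrays at day 14 and above both at day 28, and in 30 high-then-low profiles the reverse held. This difference between the days was not tested, since the members were chosen for it.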

How the results depend on the processing

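With other scaling, a pseudocount or the replicate block, no member met the rule in the opposite direction. Centring shifted the OVA minus saline differences by only -0.02 at day 14 and by -0.02 or -0.08 at day 28. That is too little to reverse a member, and a pseudocount of 1 is small beside intensities of this level. Leaving out arrays of a single day, or changing the limits of the rule, cannot reverse the differences of both days. Centring, the pseudocount, left-out arrays and changed limits therefore say nothing about a change of direction. Leaving out each array in turn gave 77 to 97 low-then-high and 66 to 112 high-then-low members. It also changed the weights of the arms in the day contrast. Members called in the day contrast then numbered 0 to 1 and 0 to 7, and those with an unadjusted p under 0.05 numbered 15 to 57 (higher at day 28) and 9 to 30 (lower at day 28). Of the planned settings with all arrays, quantile normalization gave 66 low-then-high members and 141 high-then-low members, of which 66 and 86 were among those above. It called 2 high-then-low profiles and gave 24 and 28 at an unadjusted p, and the median OVA change of low-then-high profiles was 0.57. Centring on the bright profiles, which shifted the OVA change over time by -0.11, called 4 high-then-low profiles and gave 27 and 25 at an unadjusted p. A pseudocount of 1 called 4. Calling by unadjusted p gave 41 and 16 members in either direction. With OVA day 28 replicates 3 and 4 removed, 56 high-then-low members were chosen, and the median OVA change of the 89 original ones was -0.34. At an unadjusted limma p under 0.05, 3 low-then-high profiles were then higher at day 28 and 8 lower. Of the high-then-low profiles, 4 were lower and 13 higher. The balance thus turned round in both directions. However, the contrast then weighted OVA and saline equally at day 28 and 4 to 2 at day 14. The part of the removed arrays and that of the changed weights cannot be told apart here. With replicate number as a block (replicate block), 89 and 89 members were chosen, of which 78 and 64 were among those above, none was called, and 50 and 19 had an unadjusted p under 0.05. Deviations of same-numbered arrays correlated at -0.31 to 0.50. The 2 arrays of a saline group have mirrored deviations, so pairs with a saline array say little about pairing. Same-numbered OVA arrays of the 2 days correlated at 0.46, 0.10, -0.09 and 0.50, in replicate order. Whether the numbers pair the arrays therefore could not be settled. The unadjusted counts were added after the data were seen. The median saline changes cannot move when only OVA arrays are left out, and the replicate block left them as they were. With 1 saline array left out they ran from -0.87 to -0.73 in low-then-high and from 0.60 to 1.03 in high-then-low profiles. Where they could move, they moved by less than the spread within groups, pooled over OVA and saline arrays. With 2 saline arrays per day, the saline side of each reversal is the less certain.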
